A study of Danio rerio with 93 samples.

Results

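Solvent Yellow 33 is a quinoline dye, 2-(2-quinolyl)-1,3-indandione, used to colour smokes, and its highest tested concentration in zebrafish embryos was 13.5 µM. The embryos of that treatment group and of the dye's own control were taken by their labels, which gave 3 exposed and 4 control embryos, 7 of the 93 embryos in the series. Embryos of the SPF 5-D strain had been placed singly in wells of 96-well plates after removal of the chorion, the dye or its solvent was dispensed from 6 hpf, and RNA was taken from single whole embryos at 48 hpf. The control embryos received 0.64% DMSO, the solvent of the dye, and wells that received dye were normalised with DMSO as well. The other 4 treatment groups of the dye, with 3 embryos each at 7.5 µM, 9 µM, 10.5 µM or 12 µM, entered the same model and are described only where a value at 13.5 µM needs them. The question was which genes of the whole embryo were higher or lower at this concentration than in the solvent control.

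The aryl hydrocarbon receptor (AhR) is a transcription factor that binds planar aromatic molecules and switches on cytochrome P450 family 1 genes, whose enzymes oxidise foreign compounds. Oxidised products are then joined to glutathione, sulfate or glucuronic acid, and the factor Nrf2 raises many of the genes that make and recycle glutathione. At 48 hpf the zebrafish embryo still feeds on yolk, its pigment cells and lens are differentiating, photoreceptor genes are only starting to be expressed, and its innate immune cells are already present.

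The 3 exposed embryos were replicates 1, 2 and 4 and the controls replicates 1 to 4, and values are given in that order. Levels are given as CPM, that is, estimated read counts per 1000000 counts of the library, scaled by edgeR's TMM factor, so they compare embryos for 1 gene but not genes of different length. Library totals were 28137335, 31012561 and 35982924 counts in the exposed embryos and 25902442 to 41903643 in the controls (exact permutation test, two-sided, p = 0.914, smallest possible p = 0.0286). The 10 most abundant genes held 13.0% to 13.8% of the counts in the exposed embryos and 13.0% to 14.3% in the controls. All 7 embryos expressed the muscle marker ckma, the erythrocyte marker alas2, the epidermal marker krt4 and the lens marker CRYAA, while the liver marker fabp10a was below 1 CPM, with means of 0.6 CPM in the controls and 0.116 CPM in the exposed embryos. In whole embryos, fewer cells of a type and less RNA per cell cannot be told apart.

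Libraries outside the comparison also bore on it. Replicate 3 of the 12 µM group had 9171265 counts, 50.4% of them in its 10 most abundant genes, and a CYP1A1 level of 16.5 CPM, against 959 and 1260 CPM in the other 12 µM embryos, so results are also given without it. The paper states that a sample of the 12 µM group was dropped after quality control, without naming it. Whether it was this embryo is not known here. All exposed embryos at 13.5 µM carried another second sequencing index than their 4 controls, so index and exposure cannot be told apart between these groups. Embryos at 7.5 and 9 µM carried the index of the controls, so between 13.5 and 7.5 µM index and concentration cannot be told apart either. The Disperse Blue 14 controls carried the index of the exposed embryos, but 1 of these 4 embryos, replicate 1, had 1371 CYP1A1 counts per 1000000 counts of its library total against 4.54 to 5.85 in the other 3. A comparison with those 3 embryos, called here the same-index controls, is given beside results it bears on, and was chosen after the data were seen, as was leaving out the 12 µM embryo. Those embryos were controls of another dye, so any difference between the embryo sets of the dyes enters that comparison. It does not isolate the index.

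Of 17577 genes tested, 440 were differentially expressed (DEGs), that is, they differed by more than 1.5-fold at an adjusted p below 0.05 (edgeR's quasi-likelihood test with Benjamini-Hochberg adjustment). These were 2.50% of the genes tested, 155 (0.882%) higher and 285 (1.62%) lower at 13.5 µM than in the control. In all 440 DEGs every exposed embryo lay on the same side of every control embryo, which held for 17.7% of all genes tested in the upward and 16.4% in the downward direction. Among the DEGs, 63 were over 4-fold higher and 44 over 4-fold lower, while the median log2 fold change of all genes tested was 0.04. A principal component analysis of the 7 embryos put 49.6% of the variance on a first component on which the controls lay between -38.8 and -21.4 and the exposed embryos at 30.3, 40.5 and 55. The model's shared spread was set in part by the 12 µM group: without its replicate 3, 1583 genes (8.92% of 17740) were DEGs, 513 higher (2.89%) and 1070 lower (6.03%), and these held 436 of the 440. Leaving out each of the 7 embryos in turn, with the 12 µM embryo kept, left between 91 DEGs (without exposed replicate 2) and 262 (without control replicate 4), and 80 genes were DEGs in every such model. Against the same-index controls 1378 of 17826 genes tested were DEGs, 624 higher and 754 lower. Of these, 274 were among the 440 with the same direction, and 85 of the 113 DEGs picked for description were among them. A list's count in a model is to be read beside that model's counts over all genes. Replicate 2 was the highest exposed embryo in 87 of the 155 rises and the lowest in 159 of the 285 falls.

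**Figure D1:**
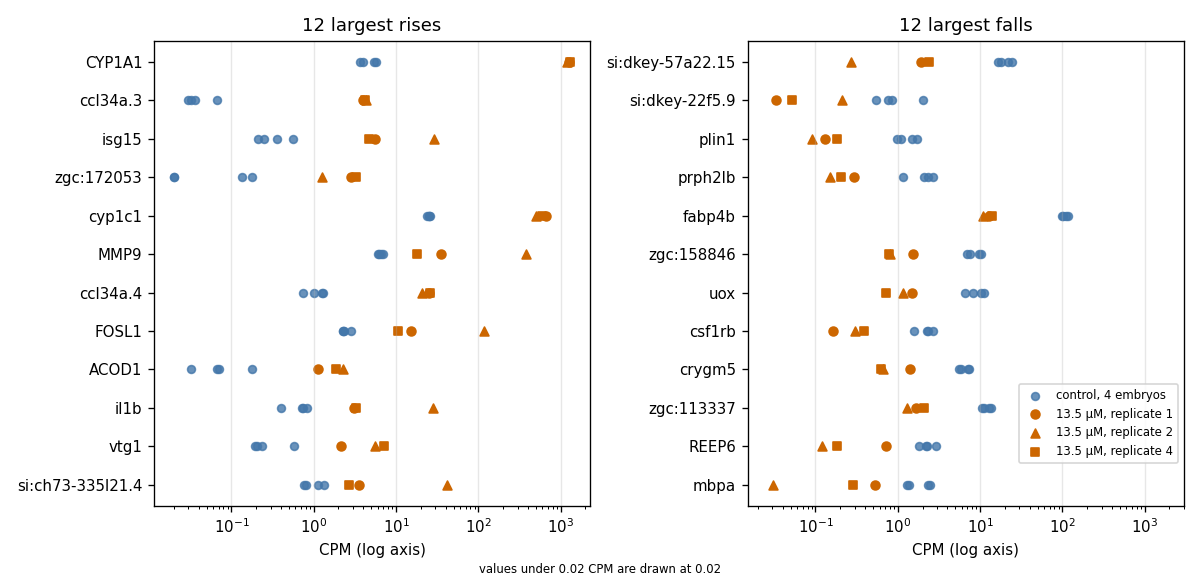
CPM on a log axis in each embryo for the 12 largest rises (left) and 12 largest falls (right) among DEGs with a gene symbol, circles in blue for the 4 controls and orange symbols for the 3 embryos at 13.5 µM, 1 symbol per replicate; values under 0.02 CPM are drawn at 0.02. Only genes whose groups did not overlap were picked. Replicate 2 (triangle) lies apart from replicates 1 and 4 in MMP9, FOSL1, il1b and isg15.

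CYP1A1 (ENSDARG00000098315), the zebrafish cyp1a gene and the usual readout of AhR activity, had the largest rise of all genes named. It measured 3.63, 5.64, 5.37 and 4.01 CPM in the controls and 1275, 1182 and 1309 CPM at 13.5 µM (log2 fold change 8.07 ± 0.88 (SE), adjusted p = 0.000231), a 269-fold difference. The exposed embryos lay close together and more than 2 orders of magnitude above the controls. cyp1c1 (ENSDARG00000101195), a family 1 member of fish, rose from 25, 26, 24.9 and 23.7 CPM to 659, 502 and 601 CPM (log2 fold change 4.56 ± 0.80 (SE), adjusted p = 0.00631). Its neighbour in the family cyp1c2 (ENSDARG00000101789) rose from 6.04, 5.71, 5.93 and 6.09 CPM to 85, 65.9 and 77.3 CPM (log2 fold change 3.68 ± 0.49 (SE), adjusted p = 0.00118). Both were uniform within each group.

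CYP1B1 (ENSDARG00000068934), a family 1 member conserved in mammals, measured 10.6, 9.27, 9.18 and 7.88 CPM in the controls and 65.3, 61.6 and 58.1 CPM when exposed. Although no embryo overlapped, its adjusted p was 0.0638 with all 19 embryos of the dye in the model and 3.81e-07 without replicate 3 of the 12 µM group, in which CYP1B1 was at 0. cyp1d1 (ENSDARG00000035569), the fifth family 1 gene of the list, was added after its values were seen, and measured 19, 21.7, 23.8 and 21.1 CPM in the controls and 20, 22.4 and 19.3 CPM when exposed, with overlap (log2 fold change -0.06, adjusted p = 0.981). The AhR repressor ahrrb (ENSDARG00000052618) rose from 0.294, 0.0224, 0.0894 and 0.0717 CPM to 0.821, 0.906 and 1.27 CPM (log2 fold change 3.07 ± 0.62 (SE), adjusted p = 0.0148), and FOXQ1 (ENSDARG00000030896), a forkhead transcription factor, from 2.65, 3.43, 3.25 and 3.15 CPM to 18.6, 18.8 and 15.9 CPM (log2 fold change 2.50 ± 0.59 (SE), adjusted p = 0.0325). The other repressor gene, ahrra (ENSDARG00000099702), had 0 counts in all 4 controls, which allows up to 3 counts in each, and 25 counts over the 3 exposed embryos, and was too low to be tested.

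The receptors themselves did not move together. ahr2 (ENSDARG00000021833), the main AhR of zebrafish toxicity studies, measured 275, 242, 228 and 199 CPM in the controls and 304, 262 and 262 CPM when exposed (adjusted p = 0.934). ahr1b (ENSDARG00000023537), another receptor of the family, fell from 27.1, 24.9, 24 and 21.6 CPM to 9.82, 6.31 and 10.7 CPM (log2 fold change -1.45 ± 0.25 (SE), adjusted p = 0.00564). Of the 16 tested genes of the AhR list 5 were higher and 1 was lower, against 0.882% and 1.62% of all genes, with a list median of 0.63. Without replicate 3 of the 12 µM group 7 were higher and 1 lower, against 2.89% and 6.03% of all genes. Against the same-index controls the counts were also 7 and 1, where 624 and 754 of 17826 genes were higher and lower. The CYP1A1 log2 fold change was 7.96 against those controls (adjusted p = 6.03e-12). Their embryo with high CYP1A1 had been left out, so this value was set in part by that choice and is no separate test. The counts of the list share this limit. With that embryo kept, 0 of 17849 genes were DEGs, replicate 3 of the 12 µM group again left out.

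At lower concentrations CYP1A1 was also high. It averaged 634 CPM at 7.5 µM, 927 at 9 µM and 904 at 10.5 µM, where most embryos shared the controls' index, and the controls stood at 3.63 to 5.64 CPM. Between 13.5 and 7.5 µM its log2 difference was 0.98, and that of cyp1c2 0.88. cyp1d1 averaged 17.8 CPM at 7.5 µM, against a control mean of 21.4 CPM. No gene was a DEG between 13.5 and 7.5 µM with all 19 embryos of the dye in the model (337 at an unadjusted p under 0.05 in edgeR, and 10 DEGs by DESeq2), and 9 were without replicate 3 of the 12 µM group, among them CYP1A1 (adjusted p = 0.027), cyp1c2 (adjusted p = 0.0244) and fabp4b (adjusted p = 0.027), described further on. The second index also differed between these 2 concentrations, so these differences cannot be assigned to concentration alone.

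**Figure D2:**
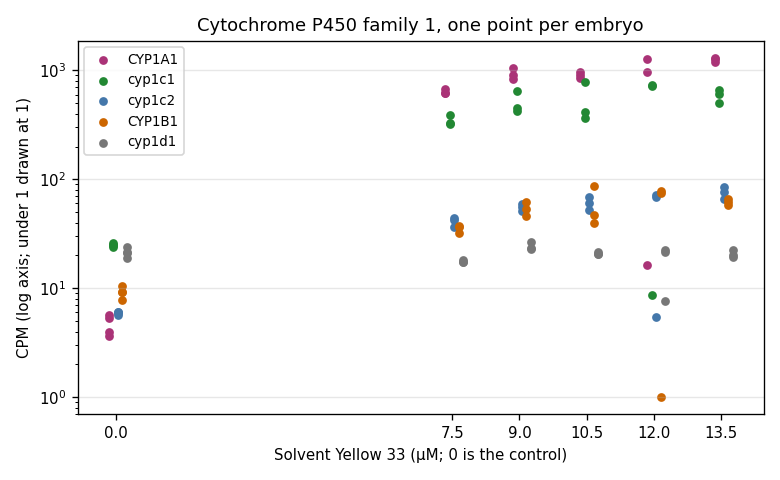
CPM on a log axis of the 5 cytochrome P450 family 1 genes of the AhR list against the concentration of Solvent Yellow 33 in µM, 1 point per embryo, with the control at 0 and values under 1 CPM drawn at 1. CYP1A1 lies between 3.63 and 5.64 CPM in the controls and between 1182 and 1309 CPM at 13.5 µM, cyp1d1 stays between 17.4 and 26.8 CPM outside replicate 3 of the 12 µM group, and the separate low points at 12 µM are that embryo.

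Genes of conjugation and glutathione use rose in part. gstp1.2 (ENSDARG00000104068), a pi class glutathione S-transferase, rose from 118, 149, 150 and 187 CPM to 623, 710 and 840 CPM (log2 fold change 2.26 ± 0.29 (SE), adjusted p = 0.000893). gsto2, an omega class transferase, had a log2 fold change of 0.90 and MGST1 (ENSDARG00000022165), a microsomal one, 0.70. No other of the 21 tested transferases was a DEG, so that 14.3% were, against 2.50% of all genes, and the list median was 0.19. The sulfotransferase sult6b1 (ENSDARG00000086826) rose from 30.4, 29.5, 34.9 and 38.1 CPM to 133, 150 and 161 CPM (log2 fold change 2.16 ± 0.32 (SE), adjusted p = 0.00219), and the glucuronosyltransferase ugt1b1 (ENSDARG00000097491) from 22, 24.8, 25.5 and 21.1 CPM to 75, 57.9 and 80.5 CPM (log2 fold change 1.61 ± 0.29 (SE), adjusted p = 0.00878). These were the 2 DEGs of 31 tested conjugation genes (6.45%, against 2.50% of all genes), and the list median was -0.15. Against the same-index controls gstp1.2 had a log2 fold change of 1.29 (adjusted p = 0.0543) and gsto2 0.41 (adjusted p = 0.351), and MGST1 0.45 (adjusted p = 0.0979), so none of these transferases was a DEG there, while sult6b1 (1.68) and ugt1b1 (1.38) were. At 7.5 µM, with the index of the dye's own controls, gstp1.2, gsto2 and MGST1 averaged 466, 40.8 and 25.5 CPM. Their means in those controls were 151, 24.7 and 16.7 CPM. Cytochrome P450 genes outside family 1 held 0 DEGs among 46 tested in edgeR (11 at an unadjusted p under 0.05, 2 by DESeq2). Without replicate 3 of the 12 µM group 1 was higher, CYP24A1, the vitamin D hydroxylase, and 8 were lower (2.89% and 6.03% of all genes). ABCB11 (ENSDARG00000070078), the bile salt export pump, fell from 1.96, 1.61, 1.58 and 1.47 CPM to 0.361, 0.574 and 0.207 CPM (log2 fold change -2.12 ± 0.48 (SE), adjusted p = 0.0269).

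Among the 29 targets of Nrf2, 4 were DEGs and all 4 were higher, against 0.882% of all genes, and the list median was 0.55. In 21 of the 29 every exposed embryo was above every control (17.7% of all genes), and in 0 every exposed embryo was below. prdx1 (ENSDARG00000058734), a peroxide-reducing peroxiredoxin, rose from 53.9, 66, 64.9 and 79.1 CPM to 258, 271 and 300 CPM (log2 fold change 2.07 ± 0.41 (SE), adjusted p = 0.013). The other identifier of that name, ENSDARG00000025350, measured 118, 138, 149 and 143 CPM in the controls and 176, 191 and 163 CPM when exposed. It was not a DEG (0.37 log2, adjusted p = 0.675), and had -0.08 log2 against the same-index controls. SQSTM1 (ENSDARG00000075014), the autophagy receptor p62, rose from 18.1, 23, 18.9 and 23.7 CPM to 66.6, 94.6 and 73.6 CPM (log2 fold change 1.90 ± 0.22 (SE), adjusted p = 0.000367). The other DEGs were PGD of the pentose phosphate pathway (0.73 log2) and the glutathione peroxidase gpx1a (0.81 log2), neither of them a DEG against the same-index controls (0.26 and 0.33 log2). The enzymes at the head of glutathione synthesis moved less: GCLC had a log2 fold change of 0.55, under the 1.5-fold limit although its adjusted p was 0.0289, and the cystine carrier slc7a11 measured 28.5, 20.6, 21.3 and 15.9 CPM in the controls and 23.6, 20.5 and 16.2 CPM when exposed, with overlap.

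More Nrf2 targets passed without replicate 3 of the 12 µM group, where 11 were higher and 0 lower (2.89% and 6.03% of all genes). Glutathione reductase GSR (ENSDARG00000019236), which recycles oxidised glutathione, measured 6.4, 6.94, 5.63 and 7.45 CPM in the controls and 29.1, 25.1 and 28.8 CPM when exposed (adjusted p = 6.23e-05 in that model and 0.0986 with all embryos). nfe2l2b (ENSDARG00000089697), a zebrafish copy of the Nrf2 gene, measured 4.41, 4.17, 4.05 and 4.87 CPM and 17.8, 17.1 and 14.2 CPM (adjusted p = 1.19e-06 and 0.1). Haem oxygenase HMOX1, which breaks down haem, measured 12.8, 11, 11 and 12.8 CPM and 23.7, 30.9 and 26.2 CPM (adjusted p = 0.000112 and 0.0635). All 3 genes were separated between the groups in every embryo, and 8 targets were higher against the same-index controls.

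A pair of ferritin genes rose. Of the 36 tested genes of the ferroptosis list, which covers iron handling, glutathione and lipid peroxides, 3 were higher and 0 lower (0.882% and 1.62% of all genes). fthl27 (ENSDARG00000031776), a ferritin heavy chain gene, rose from 234, 286, 291 and 298 CPM to 644, 774 and 758 CPM (log2 fold change 1.39 ± 0.19 (SE), adjusted p = 0.00157). fthl28, a like ferritin, rose from 16.3, 17.6, 14.3 and 22.9 CPM to 34, 42.2 and 46.8 CPM (adjusted p = 0.0311), and glutathione synthetase GSS had a log2 fold change of 0.71. These ferritins are close copies of each other, so reads may have been divided between them. The ferritin heavy chain fth1a measured 471, 513, 508 and 543 CPM in the controls and 651, 692 and 735 CPM when exposed and was not a DEG (log2 fold change 0.45, adjusted p = 0.643). gpx4a, which reduces lipid peroxides, had a log2 fold change of 0.67 (adjusted p = 0.0516). It was a DEG without replicate 3 of the 12 µM group (0.65 log2, adjusted p = 0.00806) and against the same-index controls (0.65 log2, adjusted p = 0.047). ACSL4, which readies lipids for peroxidation, had -0.29 and 0.23 for its 2 identifiers, neither a DEG. Without replicate 3 of the 12 µM group 10 genes of the list were higher and 0 lower (2.89% and 6.03% of all genes).

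Genes induced by DNA damage held 4 DEGs among 43 tested, all higher (0.882% of all genes), and a list median of 0.25. rps27l (ENSDARG00000100513), a ribosomal protein paralogue, rose from 6.01, 5.49, 7.18 and 6.56 CPM to 17.8, 26.2 and 16.3 CPM (log2 fold change 1.67 ± 0.34 (SE), adjusted p = 0.0158). sesn2 (ENSDARG00000070012), a sestrin that restrains growth signalling, rose from 4.35, 4.97, 4.95 and 4.91 CPM to 12, 16.4 and 9.99 CPM (log2 fold change 1.41 ± 0.29 (SE), adjusted p = 0.0158). GADD45B (1.31 log2), a stress-induced gene, was also a DEG. cdkn1a (ENSDARG00000076554), the p21 inhibitor of the cell cycle, measured 2.52, 2.8, 2.92 and 2.26 CPM in the controls and 9.95, 13.7 and 5.55 CPM when exposed, and mdm2, a ubiquitin ligase, 48.4, 51.9, 49.9 and 48.6 and 95.3, 102 and 72.8 CPM. Neither overlapped between groups, and neither was a DEG with all 19 embryos (adjusted p = 0.0967 and 0.384), whereas both were without replicate 3 of the 12 µM group (adjusted p = 0.000508 and 0.00409), where 13 genes of the list were higher and 0 lower (2.89% and 6.03% of all genes). With the same-index controls 10 were higher and 2 lower, and rps27l and sesn2 were not DEGs (0.74 and 0.64 log2). Of 25 tested genes of the apoptosis machinery 0 were DEGs in edgeR with all 19 embryos (5 at an unadjusted p under 0.05, 1 by DESeq2). Without replicate 3 of the 12 µM group 2 were higher and 1 lower (2.89% and 6.03% of all genes).

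DNA replication, mitosis, DNA repair and proteasome genes lay mostly above the controls, by small amounts. Of 44 replication genes every exposed embryo was above every control in 37, of 33 mitosis genes in 23, of 61 repair genes in 35 and of 41 proteasome genes in 35, against 17.7% of all genes tested. The list medians were 0.49, 0.45, 0.32 and 0.43 on the log2 scale. Single members seldom passed the test. With all 19 embryos the only DEGs of these 4 lists were GMNN (0.69 log2), the geminin inhibitor of replication licensing, and nuf2 (0.68 log2), a kinetochore protein, and neither was a DEG against the same-index controls. DNA repair gave 0 DEGs in edgeR with all 19 embryos (6 at an unadjusted p under 0.05, 2 by DESeq2), as did the proteasome (11 at an unadjusted p under 0.05, 1 by DESeq2). Without replicate 3 of the 12 µM group 5 replication, 1 mitosis, 3 repair and 4 proteasome genes were higher and 1 proteasome gene was lower (2.89% and 6.03% of all genes). Against the same-index controls 1, 1, 4 and 2 were higher and 1 proteasome gene was lower, where 624 and 754 of 17826 genes were higher and lower. PCNA, the sliding clamp of replication, measured 271, 290, 284 and 297 CPM in the controls and 387, 427 and 447 CPM when exposed (adjusted p = 0.124). Cytosolic ribosomal protein genes had a median of 0.47, but only 7 of 71 were free of overlap and 0 were DEGs in edgeR (0 at an unadjusted p under 0.05, 0 by DESeq2), and their summed level ran from 16260 to 24390 CPM in the controls and from 21705 to 30629 CPM when exposed.

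**Figure D3:**
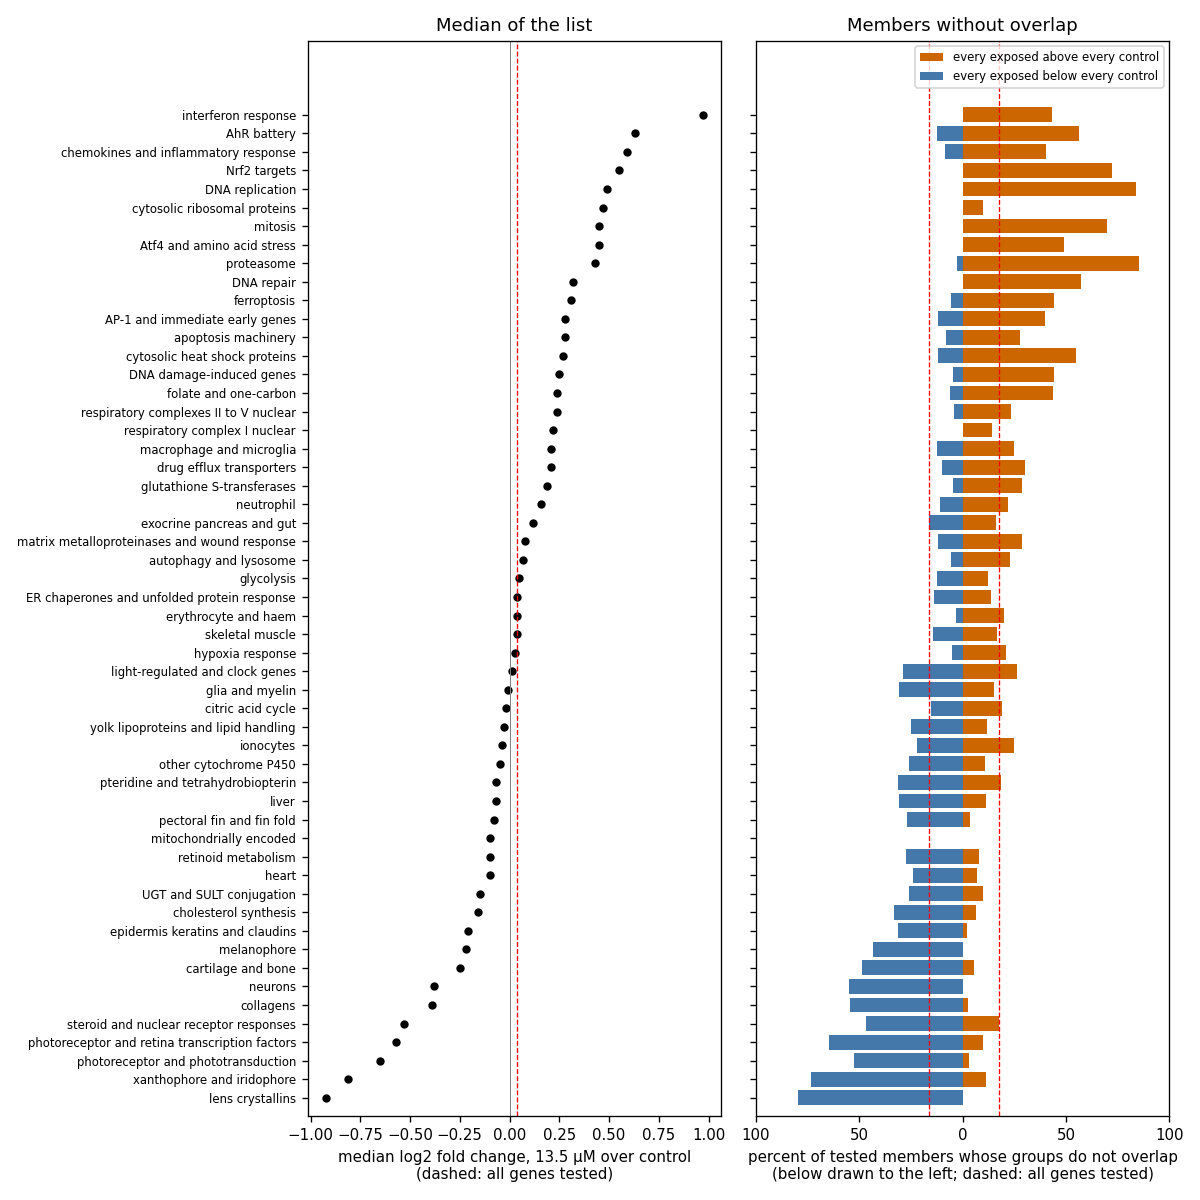
For each of the 54 gene lists, the median log2 fold change of its tested members (left) and the percentage of them in which every exposed embryo lay above (orange) or below (blue, drawn to the left) every control (right), with dashed lines at the values of all genes tested, 0.04, 17.7% and 16.4%. Interferon, AhR and inflammatory genes have the highest medians, and lens crystallins and pigment cell genes the lowest.

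Genes of the amino acid stress response, which the factor Atf4 controls, held 5 DEGs among 49 tested, all higher (0.882% of all genes). PHGDH (ENSDARG00000001873), the first enzyme of serine synthesis, rose from 56.1, 60.1, 55.5 and 57.6 CPM to 107, 120 and 111 CPM (log2 fold change 0.97 ± 0.15 (SE), adjusted p = 0.0038). The other DEGs were CEBPB (1.47 log2), a transcription factor also of inflammation, sesn2, asparagine synthetase ASNS (0.69 log2) and alanyl-tRNA synthetase AARS1 (0.60 log2). PHGDH (0.54), ASNS (0.55) and AARS1 (0.27) were not DEGs against the same-index controls. CEBPB measured 6.24, 6.52, 6.68 and 6.56 CPM in the controls and 11.3, 30.9 and 11.9 CPM when exposed, highest in replicate 2, without which its log2 fold change was 0.83 (adjusted p = 0.131). With replicate 3 of the 12 µM group left out as well it was 0.81 (adjusted p = 0.00459), a DEG. Chaperones of the endoplasmic reticulum gave 0 DEGs among 36 in edgeR with all 19 embryos (2 at an unadjusted p under 0.05, 1 by DESeq2) and 1 lower gene, pdia2, without replicate 3 of the 12 µM group (6.03% of all genes), and their median was 0.04. Of the folate and one-carbon list MAT2A (ENSDARG00000037121), which makes S-adenosylmethionine, was the only DEG of 32 (1.46 log2), that is, 3.12% against 2.50% of all genes. dhfr, which reduces folate, measured 34.3, 32.6, 34.5 and 32.4 CPM in the controls and 39.9, 39.2 and 40.7 CPM when exposed.

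The cytosolic heat shock genes hsp70.3 and hsp70.1, inducible chaperones, were the 2 DEGs of 42 tested (4.76%, against 2.50% of all genes), and in them 1 embryo stood apart. hsp70.3 (ENSDARG00000021924) measured 3.89, 4.48, 5.1 and 7.17 CPM in the controls and 12.1, 67.7 and 16.5 CPM when exposed (log2 fold change 2.64 ± 0.54 (SE), adjusted p = 0.0152). hsp70.1 (ENSDARG00000029688) measured 6.53, 4.93, 5.87 and 6.95 CPM and 9.23, 64.6 and 11.8 CPM (log2 fold change 2.23 ± 0.48 (SE), adjusted p = 0.0207). Replicate 2 was several times above replicates 1 and 4 in both, and the genes are near copies that can share reads. Against the 18 controls of all dyes pooled their log2 fold changes were -0.45 for hsp70.3 and -0.13 for hsp70.1, of the other sign. Without replicate 2 they were 1.47 and 0.79 (adjusted p = 0.178 and 0.238). With replicate 3 of the 12 µM group left out as well they were 1.46 and 0.78 (adjusted p = 0.0453 and 0.0449), and both genes were DEGs. hsp70.3 was not a DEG against the same-index controls (1.78 log2, adjusted p = 0.142). Lysosomal cathepsins, all proteases, rose with less spread: CTSH (1.19 log2), CTSB (0.91 log2) and CTSD (0.69 log2). With SQSTM1 they were the 4 DEGs of 52 autophagy and lysosome genes (7.69%, against 2.50% of all genes). CTSB and CTSD were not DEGs against the same-index controls (adjusted p = 0.608 and 0.598).

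Inflammatory genes rose most in replicate 2. MMP9 (ENSDARG00000042816), a matrix-degrading gelatinase of wounds and neutrophils, measured 6.24, 6.63, 6.92 and 6.09 CPM in the controls and 35.4, 383 and 17.8 CPM at 13.5 µM (log2 fold change 4.49 ± 0.94 (SE), adjusted p = 0.0177). The level of replicate 2 was about an order of magnitude over the others, which were still above all controls. FOSL1 (ENSDARG00000015355), an AP-1 transcription factor, measured 2.81, 2.28, 2.24 and 2.33 CPM in the controls and 15.4, 117 and 10.7 CPM when exposed (log2 fold change 4.30 ± 0.82 (SE), adjusted p = 0.0113). il1b (ENSDARG00000098700), the cytokine interleukin 1 beta, measured 0.751, 0.403, 0.835 and 0.717 CPM and 3.05, 28.5 and 3.3 CPM (log2 fold change 4.10 ± 0.62 (SE), adjusted p = 0.00315). tnfb (ENSDARG00000013598), a tumour necrosis factor, measured 0.131, 0.381, 0.149 and 0.143 CPM and 1.21, 6.92 and 1.52 CPM (log2 fold change 3.93 ± 0.73 (SE), adjusted p = 0.00942). In all 4 genes the same embryo led.

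The same order was seen in cxcl18b (ENSDARG00000075045), a chemokine that attracts neutrophils in zebrafish, at 0.588, 0.605, 1.04 and 1.08 CPM and 2.82, 31.1 and 3.3 CPM (log2 fold change 3.91 ± 0.82 (SE), adjusted p = 0.0182). It was also seen in JUNB (ENSDARG00000104773), a partner of AP-1, at 0.882, 1.41, 1.19 and 1.43 CPM and 5.19, 17.3 and 5.65 CPM (log2 fold change 2.92 ± 0.59 (SE), adjusted p = 0.0142), and in plaua, a plasminogen activator, at 0.653, 0.739, 0.715 and 0.824 CPM and 2.76, 14.3 and 2.84 CPM (log2 fold change 3.17 ± 0.68 (SE), adjusted p = 0.0202). Without replicate 2 the log2 fold changes of cxcl18b, JUNB and plaua were 1.89, 2.14 and 1.93 (adjusted p = 0.314, 0.133 and 0.244). With replicate 3 of the 12 µM group left out as well they were 1.88, 2.12 and 1.91 (adjusted p = 0.00713, 0.0119 and 0.000301), and all were DEGs. JUNB was not a DEG against the same-index controls (1.88 log2). Its other identifier, ENSDARG00000074378, overlapped between the groups and was not a DEG (1.09 log2, adjusted p = 0.467, and -0.03 log2 without replicate 2). cxcl8a, the neutrophil chemokine interleukin 8, measured 1.38, 33 and 1.86 CPM when exposed against 3.23, 3.16, 3.07 and 3.15 CPM in the controls, so that replicates 1 and 4 were below and replicate 2 above them, and it was not a DEG (adjusted p = 0.27). The hypoxia-induced prolyl hydroxylase EGLN3 was likewise high in replicate 2, at 14.3, 123 and 20.3 CPM against 19.8, 28, 33.2 and 42.7 CPM in the controls (adjusted p = 0.761).

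Leaving replicate 2 out showed what the others held. Without it, and without replicate 3 of the 12 µM group, MMP9 had a log2 fold change of 2.02 (adjusted p = 0.00207), FOSL1 2.42 (adjusted p = 0.00034), il1b 2.22 (adjusted p = 0.000283) and tnfb 2.67 (adjusted p = 0.00207). In that model 986 genes were DEGs, 331 higher and 655 lower, and 415 of the 440 were among them. Without replicate 2 alone, with the 12 µM embryo kept, 91 genes were DEGs and the adjusted p of MMP9 was 0.325 and that of il1b 0.00545. Of the 47 tested inflammatory genes 8 were higher and 1 was lower with all embryos, against 0.882% and 1.62% of all genes. The counts were 19 and 2 without replicate 3 of the 12 µM group, against 2.89% and 6.03%, and 9 and 2 without both embryos. With all 19 embryos 5 of 50 AP-1 and immediate early genes were higher and 1 was lower, klf2a, a factor of vessel lining. Of 42 metalloproteinase and wound genes 3 were higher and 0 lower, against 0.882% and 1.62% of all genes for both lists. The only lower DEG of the inflammatory list was ccl25a (ENSDARG00000115610), a chemokine of the thymus and gut, which fell from 4.12, 5.04, 6.32 and 3.94 CPM to 1.61, 0.695 and 0.697 CPM (log2 fold change -2.28 ± 0.39 (SE), adjusted p = 0.00601).

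**Figure D4:**
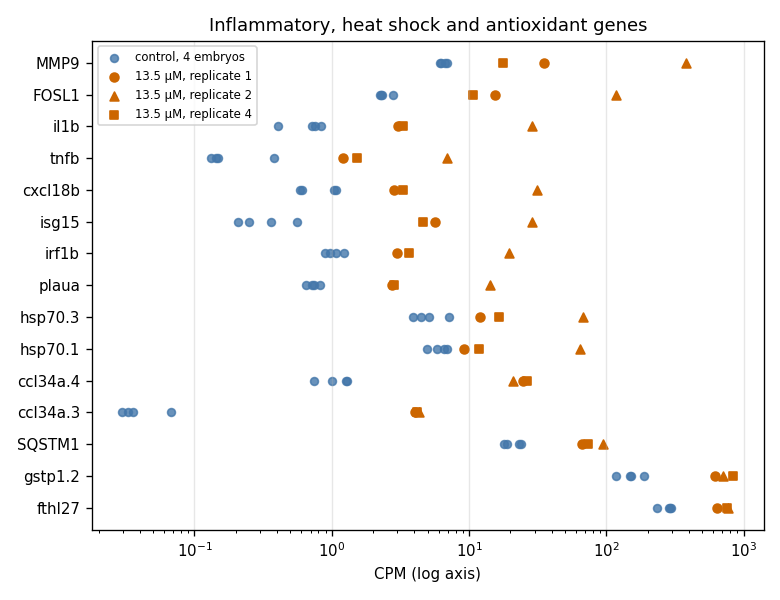
CPM on a log axis in each embryo for inflammatory, heat shock and antioxidant genes, blue circles for the 4 controls and orange symbols for replicates 1, 2 and 4 at 13.5 µM. Replicate 2 (triangle) leads in MMP9 at 383 CPM and in FOSL1 at 117 CPM, while ccl34a.4, SQSTM1, gstp1.2 and fthl27 are close among the 3 exposed embryos.

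A pair of chemokine genes rose evenly. ccl34a.4 (ENSDARG00000090873) measured 1.27, 1.01, 0.745 and 1.29 CPM in the controls and 24.9, 20.9 and 26.2 CPM when exposed (log2 fold change 4.48 ± 0.67 (SE), adjusted p = 0.00298). ccl34a.3 (ENSDARG00000094983) measured 0.0327, 0.0672, 0.0298 and 0.0358 CPM and 4.01, 4.35 and 4.16 CPM (log2 fold change 6.46 ± 0.78 (SE), adjusted p = 0.000508), from 6 counts in the 4 controls together. Replicate 2 did not lead in either clearly, both remained DEGs without it and the 12 µM embryo (adjusted p = 1.09e-08 and 6.33e-08), and at 7.5 µM their means were 22.5 and 5.85 CPM. irg1l (ENSDARG00000062788), an immune-responsive gene, rose unevenly, from 1.54, 1.93, 1.61 and 3.08 CPM to 4.2, 26.5 and 3.12 CPM (log2 fold change 2.47 ± 0.63 (SE), adjusted p = 0.0475). Replicate 2 led it, and replicate 4, at 3.12 CPM, lay barely above the highest control, at 3.08 CPM. ACOD1 (ENSDARG00000069844), the itaconate-making enzyme of activated macrophages, rose from 0.0327, 0.0672, 0.179 and 0.0717 CPM to 1.12, 2.24 and 1.86 CPM (log2 fold change 4.24 ± 0.67 (SE), adjusted p = 0.0038).

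Interferon response genes had the highest median of any list, 0.97, with 4 DEGs of 23 tested, all higher (0.882% of all genes). isg15 (ENSDARG00000086374), a ubiquitin-like interferon-induced protein, measured 0.555, 0.358, 0.209 and 0.251 CPM in the controls and 5.62, 28.8 and 4.65 CPM when exposed (log2 fold change 5.23 ± 0.82 (SE), adjusted p = 0.0038). irf1b (ENSDARG00000043249), an interferon regulatory factor, measured 1.08, 0.963, 1.22 and 0.896 CPM and 2.99, 19.7 and 3.64 CPM (log2 fold change 3.07 ± 0.53 (SE), adjusted p = 0.00591), and b2m, the light chain of MHC class I, 3.59, 4.97, 3.82 and 4.19 CPM and 12.2, 34 and 11.2 CPM (log2 fold change 2.20 ± 0.55 (SE), adjusted p = 0.0423). Replicate 2 again had the highest level in each. The fourth DEG was gbp1, a guanylate binding protein (0.97 log2), not called against the same-index controls (0.67 log2, adjusted p = 0.0837). Without replicate 2 the log2 fold changes of isg15, irf1b and b2m were 3.89, 1.67 and 1.5 (adjusted p = 0.0301, 0.0421 and 0.387). With replicate 3 of the 12 µM group left out as well that of b2m was 1.48 (adjusted p = 0.00142), a DEG. Without replicate 2 and the 12 µM embryo 8 genes of the list were higher and 0 lower, and against the same-index controls 5 were higher and 0 lower.

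Markers of the immune cells themselves gave no common direction. The neutrophil lysozyme lyz measured 39.7, 55.8, 58 and 63.1 CPM in the controls and 26.2, 37.1 and 57.9 CPM when exposed, with overlap. MMP9 was the only DEG of 18 neutrophil genes (5.56%, against 2.50% of all genes). Summed over the neutrophil list, levels were 244 to 284 CPM in the controls and 251, 690 and 276 CPM when exposed, and MMP9 made up 383 of the 690 CPM of replicate 2. Macrophage genes were mixed, with 4 higher and 1 lower of 32, against 0.882% and 1.62% of all genes. Their summed level was 1475 to 1782 CPM in the controls and 1892 to 2128 CPM when exposed. The perforin-like macrophage marker MPEG1 was higher for 1 identifier, ENSDARG00000043093, at 4.97, 6.05, 5.25 and 4.84 CPM and 8.11, 18.9 and 8.96 CPM (log2 fold change 1.18 ± 0.26 (SE), adjusted p = 0.0232). Replicate 2 led, and without it the log2 fold change was 0.69 (adjusted p = 0.224). Another, ENSDARG00000055290, was lower without overlap, at 13.1, 15.8, 12.7 and 18.3 CPM and 6.67, 8.34 and 10.7 CPM, but no DEG with all 19 embryos (adjusted p = 0.0612). It was a DEG without replicate 3 of the 12 µM group (-0.83 log2, adjusted p = 0.00818) and against the same-index controls (-0.95 log2, adjusted p = 0.00904). The lysosomal genes ctss2.1, a cathepsin S (2.15 log2), and ACP5, an acid phosphatase of osteoclasts and macrophages (1.88 log2), were DEGs, but ACP5 was not against the same-index controls (0.93 log2, adjusted p = 0.321). csf1rb (ENSDARG00000053624), a receptor of macrophage growth factor, fell from 2.35, 1.59, 2.71 and 2.26 CPM to 0.164, 0.302 and 0.387 CPM (log2 fold change -2.94 ± 0.53 (SE), adjusted p = 0.00838). The part of immune cell number in the inflammatory values was not tested.

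Genes of yellow and silver pigment cells fell. Of 26 tested xanthophore and iridophore genes 8 were lower and 0 higher, against 1.62% of all genes that were lower, and the median was -0.81. gch2 (ENSDARG00000099101), which starts pteridine synthesis in xanthophores, fell from 297, 283, 255 and 268 CPM to 59.2, 93.3 and 95.7 CPM (log2 fold change -1.74 ± 0.31 (SE), adjusted p = 0.00806). XDH (ENSDARG00000055240), xanthine dehydrogenase of the same pigment, fell from 25.7, 30.9, 25.7 and 24.9 CPM to 9.88, 8.37 and 9.32 CPM (log2 fold change -1.54 ± 0.20 (SE), adjusted p = 0.000966). aox5 (ENSDARG00000071475), an aldehyde oxidase that marks xanthophores, fell from 81.8, 86.4, 80.8 and 94.3 CPM to 24.2, 39.8 and 33.6 CPM (log2 fold change -1.40 ± 0.29 (SE), adjusted p = 0.0158). No exposed embryo reached a control embryo in these genes.

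slc2a11b (ENSDARG00000063288), a sugar transporter needed by xanthophores in fish, fell from 81.4, 79.2, 75.2 and 79.8 CPM to 17.9, 24.2 and 25.1 CPM (log2 fold change -1.82 ± 0.26 (SE), adjusted p = 0.00161), and the transporters slc2a15a (-1.58 log2) and slc2a15b (-1.17 log2) fell with it. pnp4a (ENSDARG00000057575), a purine enzyme that marks iridophores, fell from 41.3, 45.5, 42 and 42.6 CPM to 13.5, 14 and 15.2 CPM (log2 fold change -1.59 ± 0.23 (SE), adjusted p = 0.00201). FHL2 (ENSDARG00000003991), a LIM domain protein, had a log2 fold change of -2.20. In the pteridine list SPR (ENSDARG00000058553), sepiapterin reductase, was also a DEG (-1.94 log2). Against the same-index controls SPR had a log2 fold change of 0.13 (adjusted p = 0.857) and was not lower, while gch2 (-1.12), XDH (-0.87), aox5 (-1.39), pnp4a (-1.18) and slc2a11b (-1.43) were DEGs, each with a smaller difference than before. SPR measured 26, 20.9, 17.6 and 22.5 CPM in the dye's own controls. At 7.5 µM, with the index of those controls, it measured 5.62, 5.01 and 4.72 CPM.

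Levels at lower concentrations were already low. gch2 averaged 70.8 CPM at 7.5 µM, 63.8 at 9 µM, 81.6 at 10.5 µM and 82.7 at 13.5 µM, and XDH 9.27, 7.65, 8.94 and 9.19 CPM. Between 13.5 and 7.5 µM the log2 differences were 0.22 and -0.01 (adjusted p = 1 and 1). Melanophore genes gave 0 DEGs among 23 in edgeR with all 19 embryos (2 at an unadjusted p under 0.05, 1 by DESeq2) and 3 lower ones without replicate 3 of the 12 µM group (6.03% of all genes). In 10 of the 23 every exposed embryo was below every control (16.4% of all genes), in 0 above (17.7%), and the median was -0.22. Tyrosinase TYR, which starts melanin synthesis, measured 10.8, 11, 10.3 and 12.1 CPM in the controls and 7.55, 7.1 and 9.01 CPM when exposed, without overlap (adjusted p = 0.792).

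The eye was the other tissue with many falls. Of 65 tested photoreceptor and phototransduction genes 10 were lower (1.62% of all genes) and 0 higher, with a median of -0.65. In 34 every exposed embryo was below every control (16.4% of all genes). syt5b (ENSDARG00000011640), a synaptotagmin of photoreceptors in zebrafish, fell from 47, 52.8, 58.9 and 43.4 CPM to 13.9, 9 and 17.5 CPM (log2 fold change -1.91 ± 0.35 (SE), adjusted p = 0.00942). rcvrna (ENSDARG00000052223), recoverin, fell from 12.4, 10.8, 12.8 and 10.6 CPM to 4.33, 1.66 and 4.34 CPM (log2 fold change -1.76 ± 0.37 (SE), adjusted p = 0.0198). tulp1a (ENSDARG00000075295), a tubby-like protein of photoreceptors, fell from 27.2, 24.3, 22.6 and 22.1 CPM to 10.2, 6.95 and 8.8 CPM (log2 fold change -1.48 ± 0.29 (SE), adjusted p = 0.0126). OPN1SW (ENSDARG00000045677), the ultraviolet cone opsin opn1sw1, was at a low level and fell from 0.751, 1.07, 0.715 and 0.717 CPM to 0.0328, 0.121 and 0.103 CPM (log2 fold change -3.17 ± 0.76 (SE), adjusted p = 0.0364), from 115 counts over the controls and 9 over the exposed embryos.

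The rim proteins of photoreceptor discs fell as well, prph2lb (ENSDARG00000021345) from 2.06, 2.33, 2.71 and 1.15 CPM to 0.296, 0.151 and 0.207 CPM (log2 fold change -3.23 ± 0.56 (SE), adjusted p = 0.00601) and PRPH2 (ENSDARG00000038018) with a log2 fold change of -2.52. The cone arrestin ARR3 (ENSDARG00000098475) had -1.50. Its other identifier, ENSDARG00000056511, had -0.50, with overlap, and was not a DEG (adjusted p = 0.606). Against the same-index controls both identifiers were lower DEGs (-1.79 and -2.01 log2). Not every photoreceptor gene was lower: the cone transducin GNAT2 measured 2.58, 3.31, 2.74 and 2.04 CPM in the controls and 2.43, 2.78 and 2.43 CPM when exposed, with overlap. The red cone opsin opn1lw2 measured 2.71, 3.38, 3.31 and 2.29 CPM and 1.77, 1.63 and 1.5 CPM (adjusted p = 0.377), and the blue cone opsin opn1sw2 had 0 counts in all 7 embryos.

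Some transcription factors of the retina also fell. crx (ENSDARG00000011989), which drives photoreceptor genes, fell from 270, 258, 279 and 198 CPM to 121, 67.3 and 70.8 CPM (log2 fold change -1.54 ± 0.37 (SE), adjusted p = 0.0369), and BHLHE23 (ENSDARG00000037588), a basic helix-loop-helix factor of the retina, from 24.3, 23.1, 25.5 and 20.1 CPM to 9.56, 5.14 and 6.84 CPM (log2 fold change -1.70 ± 0.28 (SE), adjusted p = 0.00423). rx3 (ENSDARG00000052893), an early eye field factor, foxq2 and VSX1, a factor of bipolar cells, were the other DEGs (-1.35, -1.63 and -1.01 log2), so that 5 of 31 tested were lower (1.62% of all genes) and 0 higher. Without replicate 3 of the 12 µM group 25 phototransduction genes and 14 of these factors were lower (6.03% of all genes) and 0 higher. Against the same-index controls 26 and 9 were lower and 0 and 1 higher. BHLHE23 and crx had log2 fold changes of -0.98 and -1.38 there and were not DEGs (adjusted p = 0.0834 and 0.0712). In the retinoid list, with 51 tested, 7.84% were DEGs, against 2.50% of all genes. Of these 1 was higher, rdh12l (1.29 log2), a retinol dehydrogenase, and 3 were lower, lratb.2 (-2.54 log2), which esterifies retinol, RDH8 (ENSDARG00000099217, -1.95 log2), a photoreceptor retinol dehydrogenase, and rlbp1b (-1.24 log2), a retinal binding protein. CYP26A1, which degrades retinoic acid and responds to it, measured 18.9, 20.8, 24.9 and 24.4 CPM in the controls and 20.5, 34.2 and 26.5 CPM when exposed, with overlap.

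Lens crystallins had the lowest median of any list, -0.92, and in 35 of 44 tested genes every exposed embryo was below every control (16.4% of all genes). Only 3 were DEGs with all 19 embryos, all lower (1.62% of all genes). Without replicate 3 of the 12 µM group 25 were, all lower (6.03% of all genes). crygm5 (ENSDARG00000041179), a gamma crystallin, fell from 5.85, 5.6, 7.21 and 7.27 CPM to 1.41, 0.665 and 0.62 CPM (log2 fold change -2.85 ± 0.63 (SE), adjusted p = 0.0243). HSF4 (ENSDARG00000013251), the heat shock factor of lens development, had a log2 fold change of -1.26, and MIP (ENSDARG00000013963), the lens water channel, -0.59, which was -0.33 and no DEG against the same-index controls (adjusted p = 0.191). CRYAA, the early lens alpha crystallin, measured 56.7, 77.6, 73.4 and 60.3 CPM in the controls and 75.2, 64.4 and 77.7 CPM when exposed, with overlap. Summed over the list the level was 6768 to 8883 CPM in the controls and 3954 to 4718 CPM when exposed. The gamma crystallins of this family are near copies, so reads may be divided between them, and 32 genes of the list were lower against the same-index controls.

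**Figure D5:**
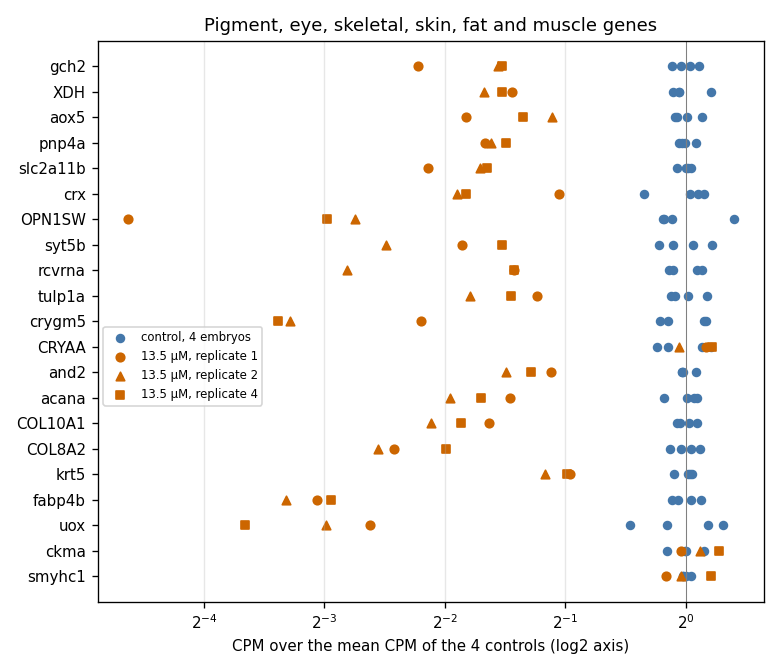
CPM of each embryo divided by the mean CPM of the 4 controls, on a log2 axis, for genes of pigment cells, eye, skeleton, skin, fat and muscle, blue circles for controls and orange symbols for replicates 1, 2 and 4 at 13.5 µM. All rows from gch2 to uox lie below the controls except CRYAA, and ckma and smyhc1 overlap them.

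Several genes of collagen and cartilage fell. Of 35 collagens 5 were lower (1.62% of all genes) and 0 higher, with a median of -0.39. COL10A1 (ENSDARG00000054753), a collagen of bone-forming and maturing cartilage cells, fell from 119, 133, 127 and 121 CPM to 40.2, 28.9 and 34.3 CPM (log2 fold change -1.86 ± 0.22 (SE), adjusted p = 0.000477). COL8A2 (ENSDARG00000060893), a short-chain network collagen, fell from 32.1, 30.4, 28.8 and 27 CPM to 5.52, 5.02 and 7.44 CPM (log2 fold change -2.30 ± 0.39 (SE), adjusted p = 0.0054). COL8A1, col9a3 of cartilage and col18a1b of basement membranes were also DEGs (-1.62, -0.87 and -1.16 log2). The fibrillar collagen COL1A2 measured 1084, 1148, 1115 and 1049 CPM and 924, 928 and 819 CPM (adjusted p = 0.825).

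acana (ENSDARG00000035891), aggrecan, the main proteoglycan of cartilage, fell from 58.5, 61.1, 62.2 and 51.3 CPM to 21.2, 15 and 17.9 CPM (log2 fold change -1.69 ± 0.21 (SE), adjusted p = 0.000737), and its copy acanb (-1.10 log2) and ENTPD5 (-1.20 log2), a phosphatase needed for bone mineral in zebrafish, fell with it. DLX3 (0.73 log2), a homeobox factor, was the 1 higher DEG of the 35 cartilage and bone genes, and 3 were lower (0.882% and 1.62% of all genes). SOX9, the factor that specifies cartilage, measured 87.4, 95.4, 86.8 and 87.4 CPM and 91.9, 105 and 82.5 CPM with overlap. and2 (ENSDARG00000079302), an actinodin of the fibres that stiffen the fin fold, fell from 656, 659, 714 and 661 CPM to 310, 239 and 276 CPM (log2 fold change -1.29 ± 0.18 (SE), adjusted p = 0.00157), the only DEG of 52 fin genes (1.92%, against 2.50% of all genes). and1 measured 414, 408, 423 and 420 CPM and 278, 257 and 265 CPM without overlap (adjusted p = 0.0777). It was a DEG without replicate 3 of the 12 µM group (-0.67 log2, adjusted p = 0.0075) but not against the same-index controls (-0.51 log2, adjusted p = 0.12). The keratin krt5 (ENSDARG00000058371) of the basal epidermis fell from 2161, 2184, 2209 and 1996 CPM to 1098, 950 and 1081 CPM (log2 fold change -1.04 ± 0.17 (SE), adjusted p = 0.00497), the only DEG of 42 epidermal genes (2.38%, against 2.50% of all genes), while TP63, the factor of basal epidermal cells, overlapped between groups. col9a3 (-0.40 log2) and ENTPD5 (-0.89 log2) were not DEGs against the same-index controls.

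Neuronal genes lay mostly below the controls, by small amounts. Of 49 neuronal genes 27 had every exposed embryo below every control (16.4% of all genes), 0 had every one above (17.7%), and the median was -0.38. The 3 DEGs, all lower (1.62% of all genes), were the synaptic genes SYT1 (-0.65 log2) and nrxn2a (-0.97 log2) and the GABA receptor subunit GABRB2 (-1.19 log2). Without replicate 3 of the 12 µM group 15 were lower (6.03% of all genes). SYT1 had -0.58 against the same-index controls (adjusted p = 0.0445), which is under the 1.5-fold limit. mbpa (ENSDARG00000036186), a myelin basic protein, was barely expressed at this age and fell from 1.31, 2.33, 2.44 and 1.36 CPM to 0.525, 0.0302 and 0.284 CPM (log2 fold change -2.73 ± 0.67 (SE), adjusted p = 0.0404), with 1 count in replicate 2. Of the glutamate transporters of glia SLC1A2 (ENSDARG00000102453) was lower, with a log2 fold change of -0.65, and SLC1A3 (ENSDARG00000104431) higher, with 0.95, but SLC1A3 was not a DEG against the same-index controls (0.66 log2, adjusted p = 0.206).

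Muscle, heart and blood showed few differences. The muscle creatine kinase ckma measured 3046, 3394, 3401 and 3773 CPM in the controls and 3314, 3693 and 4120 CPM when exposed, and the slow myosin smyhc1 1836, 1869, 1931 and 1844 CPM and 1672, 1819 and 2166 CPM, both with overlap. 1 of 71 muscle genes was a DEG (1.41%, against 2.50% of all genes), a troponin I annotated as TNNI2 (ENSDARG00000045592), 1 of 5 identifiers with that name, at under 1 CPM in every embryo. Of 29 heart genes and 30 erythrocyte and haem genes 0 were DEGs in edgeR with all 19 embryos (heart: 2 at an unadjusted p under 0.05, 0 by DESeq2, erythrocyte and haem: 2 at an unadjusted p under 0.05, 1 by DESeq2). Without replicate 3 of the 12 µM group 3 heart genes were lower and 2 erythrocyte genes higher (6.03% and 2.89% of all genes). The natriuretic peptide nppa, which heart muscle secretes, measured 40.2, 33, 33.1 and 30 CPM and 24.8, 31.1 and 15.3 CPM. Among ionocyte genes 1 of 36 was a DEG (2.78%, against 2.50% of all genes), a potassium channel annotated as KCNJ1 (ENSDARG00000088484), 1 of 7 identifiers of that name (1.22 log2).

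The fatty acid binding protein gene fabp4b, the lipid droplet gene plin1 and the liver gene uox were among the largest falls, while the lists of lipid handling (1 higher and 1 lower of 60, median -0.03) and liver (1 higher and 3 lower of 36, median -0.07) had no common direction. Of all genes tested 0.882% were higher and 1.62% lower. fabp4b (ENSDARG00000002311), a fatty acid binding protein of fat cells and vessels, fell from 100, 111, 118 and 103 CPM to 12.9, 10.8 and 14 CPM (log2 fold change -3.10 ± 0.27 (SE), adjusted p = 5.11e-05), and its adjusted p was the lowest of all falls named. It averaged 31.2 CPM at 7.5 µM and 12.6 CPM at 13.5 µM (log2 difference -1.31). plin1 (ENSDARG00000054048), the lipid droplet coat protein perilipin 1, fell from 1.11, 1.72, 0.984 and 1.47 CPM to 0.131, 0.0906 and 0.181 CPM (log2 fold change -3.25 ± 0.73 (SE), adjusted p = 0.0251). uox (ENSDARG00000007024), urate oxidase of the liver, fell from 8.2, 11.3, 10.4 and 6.63 CPM to 1.48, 1.15 and 0.723 CPM (log2 fold change -3.03 ± 0.42 (SE), adjusted p = 0.00151). Genes among the largest falls, such as these, were picked only where the groups did not overlap.

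vtg1 (ENSDARG00000092233), the yolk precursor vitellogenin that oestrogen induces in the liver, was low in the controls and rose from 0.196, 0.202, 0.238 and 0.573 CPM to 2.13, 5.53 and 7.23 CPM (log2 fold change 4.05 ± 0.79 (SE), adjusted p = 0.0125). Against the 18 controls of all dyes pooled, among them those with raised CYP1A1, its log2 fold change was -0.40, of the other sign. CYP19A1, aromatase, which makes oestrogen, had 2 counts over the controls and 1 over the exposed embryos. The yolk lipoproteins apobb.1 (13464, 12222, 10729 and 10163 CPM and 9843, 10045 and 8475 CPM) and APOB (2848, 2582, 2310 and 2234 CPM and 1718, 1693 and 1620 CPM) did not overlap between groups and were not DEGs with all 19 embryos (adjusted p = 0.878 and 0.63). Without replicate 3 of the 12 µM group APOB was a lower DEG (-0.60 log2, adjusted p = 0.00816) and apobb.1 was not (adjusted p = 0.205). Against the same-index controls neither was (0.37 log2 for apobb.1 and 0.14 for APOB). DIO2 (ENSDARG00000094857), which activates thyroid hormone, fell from 2.09, 1.77, 2.41 and 2.37 CPM to 0.755, 0.725 and 0.336 CPM (log2 fold change -1.83 ± 0.43 (SE), adjusted p = 0.0312). FKBP5, a glucocorticoid-induced chaperone, measured 13.1, 13.7, 19.3 and 16.6 CPM in the controls and 2.1, 4.2 and 7.05 CPM when exposed, a DEG without replicate 3 of the 12 µM group (adjusted p = 0.0173) but not with it (adjusted p = 0.497). IGFBP2 (ENSDARG00000052470), an insulin-like growth factor binding protein, had a log2 fold change of -0.74. Of 30 cholesterol synthesis genes 0 were DEGs in edgeR with all 19 embryos (5 at an unadjusted p under 0.05, 3 by DESeq2) and 5 were lower without replicate 3 of the 12 µM group (6.03% of all genes).

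Light-regulated genes differed with the reference. CRY1 (ENSDARG00000045768), a cryptochrome of the clock, rose from 7.74, 7.9, 6.65 and 5.95 CPM to 13, 14.3 and 18.3 CPM (log2 fold change 1.11 ± 0.18 (SE), adjusted p = 0.0038), and lonrf1 (ENSDARG00000078567), a light-induced ligase gene in zebrafish, from 10.3, 9.92, 12.3 and 10.8 CPM to 22.8, 31.3 and 29.5 CPM (log2 fold change 1.37 ± 0.13 (SE), adjusted p = 8.89e-05). At 7.5 µM, with the index of the dye's own controls, CRY1 measured 12.4, 10.5 and 9.36 CPM and lonrf1 20.2, 21.7 and 21.5 CPM. Against the same-index controls the log2 fold changes at 13.5 µM were -0.42 and -0.27 (adjusted p = 0.189 and 0.283), that is, of the other sign and not DEGs. BHLHE40, a clock repressor (0.68 log2), was the third DEG of 38 (7.89%, against 2.50% of all genes) and remained higher there (0.70 log2).

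Energy metabolism gave few calls. Of 33 glycolysis genes, 35 nuclear genes of respiratory complex I and 13 mitochondrially encoded genes 0 were DEGs in edgeR, with all 19 embryos and also without replicate 3 of the 12 µM group, and the medians were 0.05, 0.22 and -0.10. With all 19 embryos the glycolysis genes gave 3 at an unadjusted p under 0.05, 0 by DESeq2, those of complex I 0 at an unadjusted p under 0.05, 0 by DESeq2, and the mitochondrially encoded genes 0 at an unadjusted p under 0.05, 0 by DESeq2. MT-CO1, the catalytic subunit of cytochrome oxidase, measured 36418, 33565, 33844 and 26500 CPM in the controls and 34978, 30914 and 28617 CPM when exposed.

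The remaining genes with large changes have names from clones. zgc:172053 (ENSDARG00000038321) measured 0, 0.134, 0.179 and 0 CPM in the controls and 2.82, 1.27 and 3.28 CPM when exposed (log2 fold change 4.81 ± 0.89 (SE), adjusted p = 0.00942), and si:ch73-335l21.4 (ENSDARG00000091234) 0.817, 0.761, 1.13 and 1.33 CPM and 3.51, 41.5 and 2.69 CPM (log2 fold change 3.98 ± 0.82 (SE), adjusted p = 0.0161), led by replicate 2, without which its log2 fold change was 1.62 (adjusted p = 0.353). With replicate 3 of the 12 µM group left out as well it was 1.60 (adjusted p = 0.00381), a DEG. si:dkey-57a22.15 (ENSDARG00000093318) had the largest fall of all genes named, from 18.2, 21.6, 24.7 and 16.6 CPM to 1.9, 0.272 and 2.4 CPM (log2 fold change -3.73 ± 0.93 (SE), adjusted p = 0.0425). si:dkey-22f5.9, zgc:158846 and zgc:113337 had log2 fold changes of -3.36, -3.05 and -2.84, and REEP6, a receptor accessory protein of rod cells in mice, -2.75. Absence of overlap between the groups was a condition for picking these genes.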

How the data were processed

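RNA of single whole zebrafish embryos was sequenced from poly-A libraries. The authors trimmed reads (Trim Galore 0.6.5), quantified transcripts with Salmon 1.1.0 and deposited estimated counts per gene, together with log2 CPM values made with edgeR 3.28.1, per the submitters' notes and methods. The estimated counts deposited were rounded to whole numbers, filtered with filterByExpr, scaled by TMM and tested with edgeR 4.0.16's quasi-likelihood test (R 4.3.3), with Benjamini-Hochberg adjustment over all genes tested, in 1 model of the 6 groups of the dye. The log2 CPM deposited by the authors was used only for an alternative with limma 3.58.1, and DESeq2 1.42.0 was another alternative. DEGs had a fold change over 1.5 and an adjusted p under 0.05.

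Replicates were single embryos, and nothing in the sources used here ties their numbers across groups. Gene symbols were matched to the identifiers in a table of gene names (433 of the 440 DEGs had one), many in human style, and genes sharing a symbol are told apart by identifier. Genes described were the 12 largest rises and the 12 largest falls among DEGs with a symbol, no overlap and a mean of at least 1 CPM in the higher group, in each list the DEGs of lowest adjusted p, at most 4, and key list members whatever their result. COL8A1, FOXQ1, GSR, VSX1, ahr2, ahrrb, irg1l, nfe2l2b, opn1lw2, slc2a15a, slc2a15b and pdia2 are outside that rule and were chosen after their values were seen. The comparison and the gene lists were chosen with earlier results of these data known, and the models without 12 µM replicate 3, without exposed replicate 2 as well, and with the same-index controls were added after seeing the data. On simulated counts for 13.5 µM against control (17577 genes), the model with all 19 embryos recovered 25% of 2-fold and 91% of 8-fold changes. These counts were drawn with the spread estimated over all 6 groups, a common coefficient of variation of 0.371 between embryos. In the 13.5 µM and control groups alone it was 0.142, so these recoveries hold only for the larger spread. On counts simulated without 12 µM replicate 3 (17740 genes) the model recovered 66% and 99%. The test covers the spread between embryos, and sequencing depth (25902442 to 41903643 counts for the 7 embryos) left genes below 1 CPM imprecise. Alternatives tried were other size factors, filters, tests, sample sets and references. Results of some single genes are not reported here.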

Additional observations from a re-analysis of the deposited data

Results flagged for a closer look

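For each gene described, the highest or lowest of the 4 controls was compared with the others by Dixon's criterion, which chance meets in about 5% of groups. It was met in 10 of the 144 control groups looked at. In FOSL1 control replicate 1 was at 2.81 CPM and the other 3 at 2.24 to 2.33, in sesn2 replicate 1 was at 4.35 CPM against 4.91 to 4.97. Control replicate 2 was the highest in OPN1SW at 1.07 CPM (others 0.715 to 0.751), in SOX9 at 95.4 CPM (others 86.8 to 87.4), in XDH at 30.9 CPM (others 24.9 to 25.7), in tnfb at 0.381 CPM (others 0.131 to 0.149) and in ccl34a.3 at 0.0672 CPM (others 0.0298 to 0.0358). Control replicate 3 was the highest in and2 at 714 CPM (others 656 to 661). Control replicate 4 was the highest in vtg1 at 0.573 CPM (others 0.196 to 0.238) and the lowest in col9a3 at 258 CPM (others 290 to 295). Of these genes all but SOX9 were DEGs at 13.5 µM, and in each of those the groups did not overlap.

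Outside the comparison, 1 Disperse Blue 14 control embryo, replicate 1, had 1371 CYP1A1 counts per 1000000 counts of its library total, a level like that of the embryos exposed to Solvent Yellow 33, while its other 3 control embryos were at 4.54 to 5.85. Replicates 1 and 2 of the Solvent Red 169 controls were at 179 and 195, and those of the Disperse Red 9 controls at 51.8 and 46.6. The cause was not tested.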

How the results depend on the processing

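Of 440 DEGs with all 19 embryos, 439 was the count with DESeq2-style size factors in edgeR (RLE), 404 with no filter, 357 of 12304 with at least 10 counts in every embryo, and 486 with the newer form of the test. It was 947 with DESeq2 (284 higher, 663 lower), 285 with limma on the deposited log2 CPM (78 and 207), 2137 with only the 2 groups compared (771 and 1366), 1561 without the 12 µM group (516 and 1045), 1583 without 12 µM replicate 3 (513 and 1070), and 986 without 12 µM replicate 3 and exposed replicate 2 (331 and 655). It was 44 against the 18 controls of all dyes pooled (23 and 21) and 116 (64 and 52) when 12 µM replicate 3 was left out too. Against all 4 Disperse Blue 14 controls it was 0 (0 and 0, with 1054 genes at an unadjusted p under 0.05) and 0 without 12 µM replicate 3 (2444), and 1378 (624 and 754) without their replicate 1 as well. Leaving out 1 embryo gave 91 to 262 DEGs: 256, 91 and 163 without exposed replicates 1, 2 and 4, and 167, 187, 175 and 262 without controls 1 to 4, with 41 to 107 higher and 50 to 170 lower.

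With the replicate number as a block the count was 210 (70 higher, 140 lower), and 1447 (455 and 992) without 12 µM replicate 3. Deviations of same-numbered exposed and control embryos correlated at 0.194, -0.0268 and 0.159. Exposed replicates 1 and 4 correlated best with the control of their own number, and replicate 2 with control replicate 4 (0.0754). With same-numbered embryos at 7.5 µM, replicates 1 and 2 gave -0.0958 and -0.00117. These few values do not settle whether numbers pair embryos. Between 13.5 and 7.5 µM, DESeq2 gave 10 DEGs (0 higher, 10 lower), the 2 groups alone 27 (11 and 16) and the model without 12 µM replicate 3 gave 9 (4 and 5), the others run 0, the replicate block included.

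Signs turned for CRY1 (-0.35, -0.34 and -0.42), SPR (0.26, 0.27 and 0.13) and lonrf1 (-0.26, -0.25 and -0.27) against the Disperse Blue 14 controls, without 12 µM replicate 3, and without their replicate 1 too. They turned for hsp70.1 (-0.13 and -0.14), hsp70.3 (-0.45 and -0.46) and vtg1 (-0.40 and -0.41) against the pooled controls with and without 12 µM replicate 3. The cause was not tested. Of uncalled genes described, 13 changed sign in some alternative. How far depth limits the calls was not tested.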
